A study of Mus musculus with 2 samples.

Results

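The NR4A nuclear receptors, the salt-inducible kinases (SIKs) and the CREB-regulated transcription coactivators (CRTCs) belong to the cAMP response, and their genes were followed with that of CREB in total RNA from the mouse adrenal gland. The members are Nr4a1, Nr4a2, Nr4a3, Sik1, Sik2, Sik3, Crtc1, Crtc2, Crtc3 and Creb1. These were 10 of 55536 annotated genes, found by symbol and gene identifier. They were selected on measured values, since Nr4a1, Sik1 and Nr4a2 had been seen among the genes with the highest ratios between the libraries, and their paralogues, the coactivators and Creb1 completed the set. Ratios of the members are therefore a description and carry no test.

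The study holds 1 group of 2 libraries from adrenal glands of female B6CASTF1/J mice, an F1 cross of C57BL/6J and CAST/EiJ, aged 36 days, with no treatment named in the labels. Each library came from 300 ng of total RNA after ribosomal RNA reduction, with ERCC spike-in RNAs added and a kit that keeps strand. The labels call the libraries biological replicates 1 and 2, and the sample characteristics number the animals differently. However, the library descriptions repeat 1 animal number and both samples carry the same donor identifier. An SD over the libraries (n = 2) may thus measure the spread between libraries of 1 animal. Over the gene tables, replicate 1 summed to 35684781 expected counts and replicate 2 to 38701795. Expected counts are read numbers after reads that match several genes have been divided among them, and TPM, a relative abundance with a fixed total in every library, scales them for transcript length and library total.

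NR4A receptors are orphan nuclear receptors with no established hormone ligand and act mainly through how much of them is made. Their genes are immediate early genes, and in the adrenal cortex corticotropin, acting through cAMP and protein kinase A, is a known inducer. SIKs phosphorylate CRTCs, which 14-3-3 proteins then hold in the cytoplasm. Protein kinase A restrains SIKs, and calcineurin removes the phosphates, so that CRTCs enter the nucleus and join CREB on cAMP response elements (CREs). Sik1 is itself a CREB target in cortical cells and closes a negative feedback loop.

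Because the Nr4a genes are known targets of CREB, the bases just before their start sites are shown with each CRE half-site in capitals. The half-site searched was TGACG on either strand, so that it reads as CGTCA where it lies on the strand opposite the gene. The sequences are RefSeq's for GRCm38.p6, the assembly behind mm10, and run 5′ to 3′ on the gene's strand. That of Nr4a1 is chr15:101266596-101266845 on the plus strand, that of Nr4a2 is chr2:57124004-57124253 on the minus strand, and that of Nr4a3 is chr4:48045055-48045152 on the plus strand, which ends where the first annotated exon begins. Sik2, at chr9:51009074-51009323 on the minus strand, is shown as an example of a window with no half-site. Its paralogue Sik3 had 3, and no promoter was found for Sik1.
Nr4a1: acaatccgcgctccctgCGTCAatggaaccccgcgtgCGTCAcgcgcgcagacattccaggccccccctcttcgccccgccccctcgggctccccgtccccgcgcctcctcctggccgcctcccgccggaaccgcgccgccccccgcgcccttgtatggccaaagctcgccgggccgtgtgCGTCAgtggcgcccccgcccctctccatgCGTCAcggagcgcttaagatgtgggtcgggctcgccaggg
Nr4a2: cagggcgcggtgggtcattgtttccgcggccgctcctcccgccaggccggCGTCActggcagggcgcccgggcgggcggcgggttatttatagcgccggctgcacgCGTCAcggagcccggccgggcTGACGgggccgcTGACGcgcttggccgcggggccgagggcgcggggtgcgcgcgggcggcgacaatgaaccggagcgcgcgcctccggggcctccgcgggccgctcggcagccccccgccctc
Nr4a3: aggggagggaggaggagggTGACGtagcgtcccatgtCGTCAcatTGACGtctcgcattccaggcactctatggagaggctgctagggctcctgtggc
Sik2: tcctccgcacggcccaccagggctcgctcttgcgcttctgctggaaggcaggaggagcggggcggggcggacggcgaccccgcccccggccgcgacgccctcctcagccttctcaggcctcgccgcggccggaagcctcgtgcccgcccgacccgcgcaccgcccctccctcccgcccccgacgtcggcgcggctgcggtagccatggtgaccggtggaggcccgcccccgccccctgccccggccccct

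Promoters were found for 8 of the 10 members, all but Sik1 and Crtc2. In the 250 bases before the RefSeq start site, each Nr4a gene had 4 half-sites, of which 3 fall in the run printed for Nr4a3. Sik3 had 3, and Sik2, Crtc1, Crtc3 and Creb1 had 0. Of 32851 promoters of the same length, 17.8% held at least 1 half-site, 0.688% held 3 or more and 0.137% held 4 or more. The start-proximal half-sites of Nr4a1 lay 69 and 40 bases before the start, and all of its 4 matches were on the opposite strand. No member's window held the whole palindrome TGACGTCA, present in 1.55% of promoters, or the NR4A monomer element AAAGGTCA, present in 1.34%. These matches describe letters in a window, not bound sites.

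**Figure D1:**
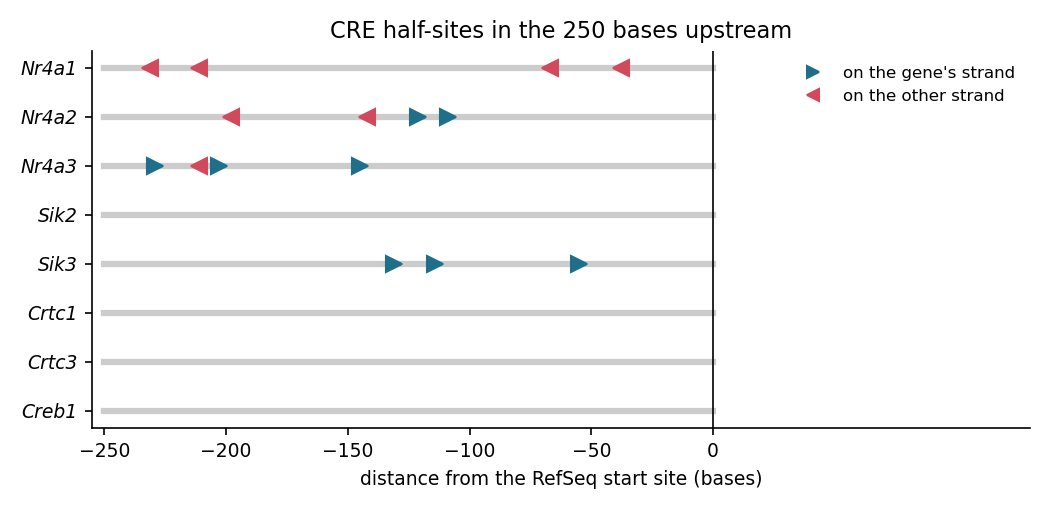
Positions of the CRE half-site TGACG in the 250 bases before the RefSeq start site of the 8 members with a promoter sequence, in bases from the start (x axis). Triangles show the strand of each match; the Nr4a genes have 4 each, Sik3 has 3 and the other members have 0.

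Nr4a1 (ENSMUSG00000023034.7, mm10 chromosome 15, 101254269 to 101274795, plus strand) was the most abundant member in both libraries. Its TPM was 48.4 in replicate 1 and 281 in replicate 2, or 164 ± 164 (SD, n = 2), from 2587 and 24529 expected counts. The authors' deposited TPM intervals ran from 44.9 to 50.6 and from 272 to 280, so they were far apart. In replicate 2 the TPM lay just above its own interval, whose posterior mean was 276. Replicate 2 was 5.80-fold higher in TPM, or 2.53 on the log2 scale of TPM + 0.1.

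The share of all counts taken by Nr4a1 was 8.74-fold higher in replicate 2, with an exact 95% Clopper-Pearson interval of 8.39 to 9.11 that covers counting error only. TPM divides by an effective length that depends on which transcripts were assigned, and the deposited effective length of the gene was 1483 bases in replicate 1 and 2260 in replicate 2. Of the 12280 genes with 200 or more summed counts, 8 had a higher TPM ratio than Nr4a1. That rank follows from its selection, and nothing is read from it.

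Nr4a2 (ENSMUSG00000026826.13, chromosome 2, 57106830 to 57124003, minus strand), best known for its role in dopamine neurons, was the scarcest member in replicate 1. It stood at 3.90 TPM there and at 11.9 TPM in replicate 2, or 7.89 ± 5.64 (SD, n = 2), from 340 and 1496 expected counts. The TPM ratio was 3.05-fold and the deposited intervals, 3.36 to 5.38 and 11.2 to 13.1, did not overlap. Its count share was 4.06-fold higher in replicate 2 (95% interval 3.60 to 4.58).

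Nr4a3 (ENSMUSG00000028341.9, chromosome 4, 48045153 to 48086447, plus strand) moved less than its paralogues. It was listed with 11.5 and 20.3 TPM in replicates 1 and 2, or 15.9 ± 6.17 (SD, n = 2), from 1774 and 4097 expected counts. With a ratio of 1.76-fold, or 0.81 in log2, it fell short of 2-fold in TPM, while Nr4a2 with 1.58 in log2 was the nearest member past it. The deposited intervals, 9.99 to 12.9 and 19.4 to 21.4, were again apart, and the count share ratio was 2.13-fold (95% interval 2.01 to 2.25).

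All 3 receptors were thus higher in the same library, with Nr4a1 far ahead. Their summed TPM was 63.8 in replicate 1 and 313 in replicate 2, a ratio of 4.90-fold. Nr4a1 supplied 75.8% of that sum in replicate 1 and 89.7% in replicate 2. In the read-derived tables, a separate quantification straight from the reads, its part was 72.0% and 88.9%.

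Sik1 (ENSMUSG00000024042.7, chromosome 17, 31844250 to 31855804, minus strand), the kinase of the family that cAMP induces, had the highest ratio of the 10 members. Its level was 5.60 TPM in replicate 1 and 38.5 in replicate 2, or 22.0 ± 23.3 (SD, n = 2), from 733 and 6310 expected counts. This was a 6.87-fold ratio, or 2.76 in log2, and the deposited intervals of 5.07 to 6.76 and 37.0 to 39.5 were far apart. The count share was 7.94-fold higher in replicate 2 (95% interval 7.35 to 8.58).

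Sik2 (ENSMUSG00000037112.16, chromosome 9, 50892801 to 51009073, minus strand) is a SIK best known from fat and liver. It was measured at 26.6 and 29.2 TPM in replicates 1 and 2, or 27.9 ± 1.83 (SD, n = 2). The gene overlaps Ppp2r1b, a phosphatase subunit gene with 11.1 and 10.8 TPM, on the other strand by 1429 bases, and 21.4% of its 31-base windows occur in other genes, so its level is uncertain if counting ignored strand.

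Sik3 (ENSMUSG00000034135.15, chromosome 9, 46012820 to 46224194, plus strand) stood at 19.0 and 18.2 TPM, or 18.6 ± 0.537 (SD, n = 2). For both kinases the deposited intervals of the libraries overlapped. The TPM ratios were 1.10-fold for Sik2 and 0.960-fold for Sik3, with log2 values of 0.13 and -0.06. In the gene tables, Sik2 led the family in replicate 1 with 52.0% of the summed SIK TPM against 10.9% for Sik1, and Sik1 led in replicate 2 with 44.8%. In the read-derived tables Sik2 stayed first in replicate 2 by gene TPM, with 64.1 TPM against 63.1 TPM for Sik1. Of that Sik2 level, 24.3 TPM lay on the short retained intron Sik2-203, from 103 of 4109 estimated counts. Over transcripts with a complete coding sequence, Sik1 led there in replicate 2, with 58.6 TPM against 36.6 TPM for Sik2. The change of leader by gene TPM thus depended on the quantification. The summed SIK level was 51.2 TPM in replicate 1 and 85.9 in replicate 2.

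The coactivators and Creb1 differed little between the libraries. Crtc1 (ENSMUSG00000003575.13, chromosome 8, 70382355 to 70439579, minus strand), the CRTC best known from brain, had 7.60 and 6.63 TPM, or 7.12 ± 0.686 (SD, n = 2). Crtc2 (ENSMUSG00000027936.18, chromosome 3, 90254163 to 90264125, plus strand), the CRTC of the hepatic glucagon response, had 11.3 and 11.4 TPM, or 11.4 ± 0.0212 (SD, n = 2). Crtc3 (ENSMUSG00000030527.15, chromosome 7, 80586627 to 80688877, minus strand) had 8.10 and 9.47 TPM, or 8.79 ± 0.969 (SD, n = 2).

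Creb1 (ENSMUSG00000025958.14, chromosome 1, 64532645 to 64604548, plus strand) encodes the factor that CRTCs join on DNA. Its level was 13.28 and 13.98 TPM, or 13.6 ± 0.495 (SD, n = 2). The deposited intervals overlapped for all 3 coactivators and for Creb1. Intervals of the count share ratio cover counting error only. They left out 1 for Sik2 (1.07 to 1.18), Sik3 (0.898 to 0.989) and Crtc3 (1.05 to 1.21). They included 1 for Crtc1, Crtc2 and Creb1. Leaving out 1 thus did not set Nr4a1, Nr4a2, Nr4a3 and Sik1 apart from the rest. The summed CRTC level was 27.0 TPM in replicate 1 and 27.5 TPM in replicate 2, with Crtc2 supplying 41.9% and 41.4%. In the read-derived tables Crtc3 led instead by gene TPM, with 19.5 and 21.3 TPM against 18.3 and 17.3 TPM for Crtc2. Of the Crtc3 level, 7.25 and 7.88 TPM lay on transcripts without a complete coding sequence, from 105 and 166 estimated counts. The transcripts with a complete coding sequence had 12.25 and 13.42 TPM for Crtc3 and 12.23 and 13.60 TPM for Crtc2.

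Log2 ratios of these 4 genes were -0.19 for Crtc1, 0.00 for Crtc2, 0.22 for Crtc3 and 0.07 for Creb1. For Crtc1, Crtc2 and Creb1 the sign depended on the scale: over the other settings tried, Crtc1 ran from -0.20 to 0.16, Crtc2 from -0.09 to 0.15 and Creb1 from -0.05 to 0.11.

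**Figure D2:**
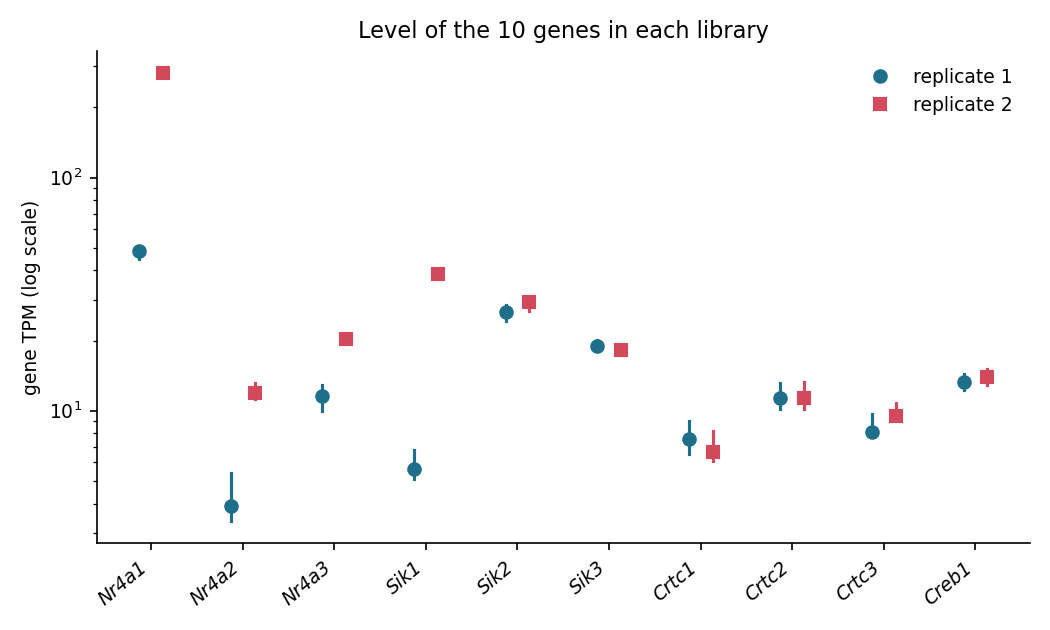
TPM of the 10 members (log axis) in replicate 1 and replicate 2, 1 point per library, with the deposited interval of each value. Nr4a1, Nr4a2, Nr4a3 and Sik1 have intervals that do not overlap between the libraries, while those of the other 6 overlap. The share of all genes without overlap is not given here. Since members were selected on these ratios, nothing is read from this count.

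In replicate 1 the order of the levels was Nr4a1, Sik2, Sik3, Creb1, Nr4a3, Crtc2, Crtc3, Crtc1, Sik1 and Nr4a2. Among neighbours in that order, the deposited intervals overlapped between Creb1 and Nr4a3, between Nr4a3 and Crtc2, and along the run Crtc3, Crtc1, Sik1 and Nr4a2. In replicate 2 the order was Nr4a1, Sik1, Sik2, Nr4a3, Sik3, Creb1, Nr4a2, Crtc2, Crtc3 and Crtc1. There the intervals overlapped only along the run Creb1, Nr4a2, Crtc2 and Crtc3. Sik1 stood in place 9 in replicate 1 and in place 2 in replicate 2 in these gene tables. In the read-derived tables the gene TPM of Sik2 was just above that of Sik1 in replicate 2, with the retained intron given above included. By mean level Nr4a1 lay at the 98.7th percentile of protein-coding genes.

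Counted at 2-fold of TPM + 0.1, 3 of the 10 members were higher in replicate 2 (Nr4a1, Sik1 and Nr4a2) and 0 were lower. Of the 12280 genes with 200 or more summed counts, 52 were 2-fold or more higher (0.423%) and 59 were 2-fold or more lower (0.48%). The median log2 ratio of all these genes was 0.04. All 10 members passed the count minimum. Since the members were selected on these ratios, nothing is read from the set against the background. In bulk RNA, fewer cells of a type and less RNA per cell cannot be told apart.

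The transcripts behind the ratios come from the same reads that selected the members, so their values are likewise a description. Transcripts were split into those annotated with a complete coding sequence and all others, such as retained introns and fragments with an open end. The 10 members have 63 annotated transcripts, 20 of them with a complete coding sequence. For Nr4a1, complete coding transcripts held 25.7 TPM in replicate 1 and 262 in replicate 2, a 10.2-fold ratio. The remaining Nr4a1 transcripts held 22.7 and 18.9 TPM, a 0.831-fold ratio, which was 1.38-fold in the read-derived tables, so their direction depended on the quantification. The complete coding share of Nr4a1 was thus 53.1% in replicate 1 and 93.3% in replicate 2, against 66.1% and 92.5% in the read-derived tables. By expected counts the share was 85.2% and 98.2%, a smaller difference, since short transcripts weigh more in TPM.

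In Sik1 both kinds of transcript were higher in replicate 2. Its only complete coding transcript, Sik1-201, had 4.18 and 35.7 TPM, an 8.55-fold ratio, and its other transcripts had 1.43 and 2.76 TPM, a 1.93-fold ratio that was 2.57-fold in the read-derived tables. Its complete coding share was 74.5% and 92.8% of TPM, and 90.9% and 96.9% of expected counts.

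For Nr4a2 the complete coding transcripts gave 2.39 and 10.7 TPM, a 4.46-fold ratio, and the others 1.51 and 1.22 TPM, a 0.808-fold ratio. By expected counts these other Nr4a2 transcripts were higher in replicate 2, with 48.7 and 107, so their direction depended on the scale. For Nr4a3 the complete coding transcript Nr4a3-201 had 6.57 and 14.4 TPM, a 2.19-fold ratio, against 1.18-fold for the others. The complete coding share was 61.3% and 89.7% for Nr4a2 and 56.9% and 71.0% for Nr4a3. By expected counts the share of Nr4a2 was 85.7% and 92.8%, a smaller difference. In these 4 genes the share of TPM was higher in replicate 2 in both quantifications. By counts this did not hold for Nr4a3, whose share was 75.1% and 76.4% in the alignment-derived tables and 88.3% and 81.7% in the read-derived tables.

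**Figure D3:**
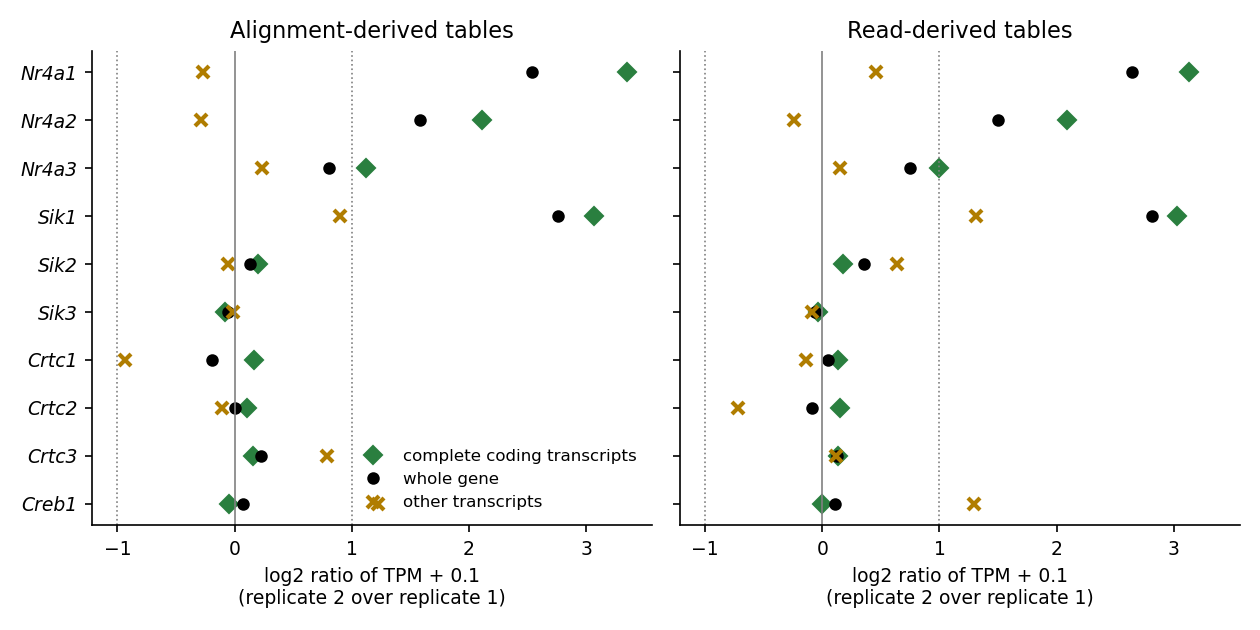
Log2 ratio of replicate 2 over replicate 1 for transcripts with a complete coding sequence and for all other transcripts of each member. In Nr4a1, Nr4a2, Nr4a3 and Sik1 the complete coding transcripts have the higher ratio, 3.34, 2.11, 1.12 and 3.07 in the alignment-derived tables.

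Among the other members the split was smaller or differed between the quantifications. Crtc1 had a complete coding share of 59.7% in replicate 1 and 76.6% in replicate 2, but 67.0% and 71.1% in the read-derived tables. In Creb1 the share was lower in replicate 2, 94.7% against 87.3%, and likewise 94.7% and 87.2% in the read-derived tables. By expected counts the Creb1 share was 97.8% and 96.2%, a smaller difference. Its other transcripts held few reads, 36.5 and 73.0 expected counts.

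As a measure of the split, the log2 ratio of the other transcripts was subtracted from that of the complete coding ones. It was 3.61 for Nr4a1, 2.40 for Nr4a2, 2.15 for Sik1 and 0.88 for Nr4a3, and 2.66, 2.33, 1.71 and 0.84 in the read-derived tables. Creb1 had a split of the opposite sign, -1.30 in both, with few counts on its other transcripts, as given above. Crtc1 had 1.10, which was 0.27 in the read-derived tables, and Sik3 had -0.07 and 0.05. Since the measure contains the ratios on which members were selected, it was not ranked against other genes. When complete coding transcripts alone were compared, 4 of the 10 members were 2-fold or more higher in replicate 2, Nr4a3 being the addition, and the share among all 11589 genes so measured was 0.621%. This count too follows from the selection, and nothing is read from it. The read-derived value of Nr4a3, 0.99 in log2, was just under 2-fold.

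**Figure D4:**
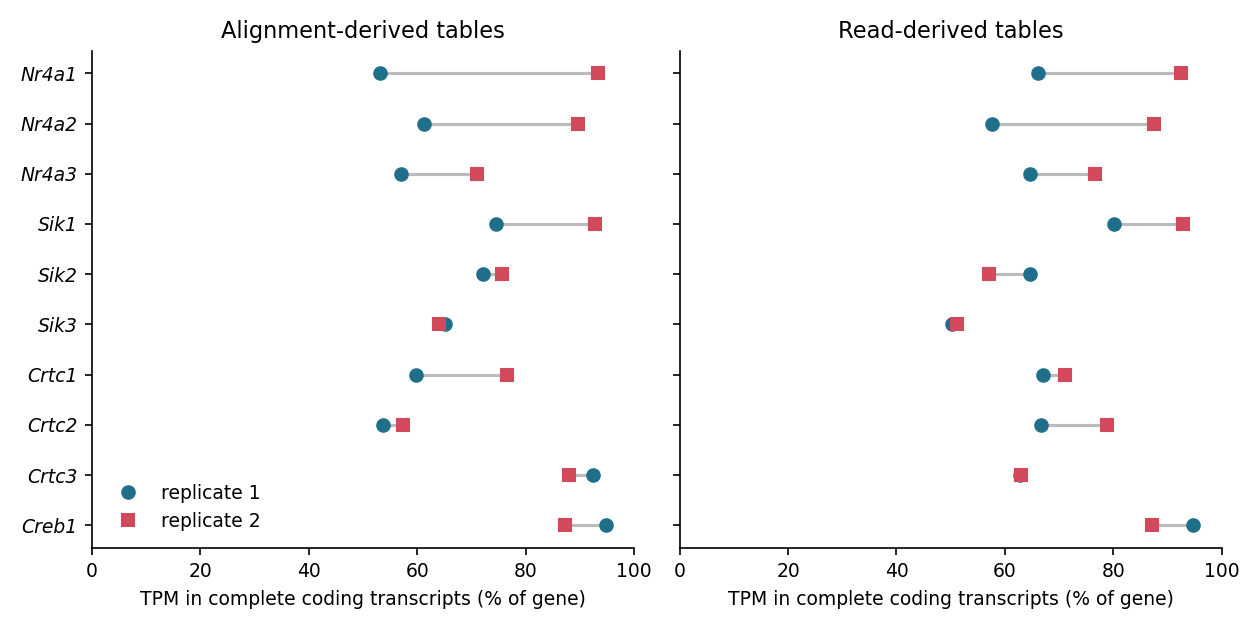
Percent of each member's TPM in transcripts with a complete coding sequence, in replicate 1 and replicate 2, in the alignment-derived and the read-derived tables. The share of Nr4a1 goes from 53.1% to 93.3% between the libraries in the alignment-derived tables and that of Creb1 from 94.7% to 87.3%. By expected counts the shares were 85.2% and 98.2% for Nr4a1 and 97.8% and 96.2% for Creb1.

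The quantifications assigned the Nr4a1 signal to different start sites. The alignment-derived tables put it on Nr4a1-201, with 24.3 and 261 TPM in replicates 1 and 2. The read-derived tables put it on Nr4a1-202, at 45.6 and 399 TPM. Both encode a complete protein, but Nr4a1-202 starts 12577 bases upstream of Nr4a1-201. The pair share 2324 windows of 31 bases, with 123 found only in Nr4a1-201 and 199 only in Nr4a1-202. The promoter printed above is that of Nr4a1-201, so which promoter the RNA came from was not settled by these tables. No 31-base window of Nr4a1 occurs in another gene.

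Within Nr4a2 both quantifications assigned most of the difference to Nr4a2-201. It had 1.03 and 7.59 TPM in replicates 1 and 2 in the alignment-derived tables, and 3.07 and 14.3 TPM in the read-derived tables. That transcript starts 8965 bases downstream of the RefSeq start whose promoter is printed above. Nr4a2-203, which begins at the RefSeq start, had 1.36 and 2.45 TPM, but at most 0.149 TPM in the read-derived tables. The processed transcript Nr4a2-205 went the other way, with 1.11 and 0.450 TPM. The read-derived tables also gave the coding transcript Nr4a2-202 1.14 and 4.55 TPM, against 0 and 0.62 TPM in the alignment-derived tables. Of the 3528 sequence windows of Nr4a2-201, only 28 occur in no other transcript, and Nr4a2-203 and Nr4a2-202 have 0 such windows. These transcripts can hardly be told apart, so the start site of the Nr4a2 RNA was not settled by these tables.

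Some other transcripts of the differing genes follow, all without a complete coding sequence. Their values are from the alignment-derived tables unless said otherwise. Nr4a1-203, an open-ended coding fragment that begins with Nr4a1-201, had 13.6 and 6.20 TPM but 7.61 and 9.54 TPM in the read-derived tables, while the retained intron Nr4a1-204 had 9.15 and 12.7 TPM. In Nr4a3, Nr4a3-203 had 1.86 and 4.87 TPM and Nr4a3-202 had 1.34 and 0 TPM. The retained intron Sik1-203 had 0.460 and 1.78 TPM, and Sik1-204 had 0.970 and 0.980 TPM.

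Among the other members the leading transcript varied more in some genes than in others. Crtc1-201 held 59.7% of Crtc1 in replicate 1 and 76.6% in replicate 2, or 67.0% and 71.1% in the read-derived tables. Sik3-204 held 65.1% of Sik3 in replicate 1 and 64.0% in replicate 2, and Crtc3-201 held 92.3% and 88.0% of Crtc3. Within Sik2 the alignment-derived tables placed 46.4% and 53.4% of TPM on the coding Sik2-205. The read-derived tables put 31.3% and 37.9% on the retained intron Sik2-203, which is 476 bases long. Sik2-203 held 63.9 and 103 of the 3386 and 4109 estimated counts of Sik2 there. Complete coding transcripts held 94.6% and 92.7% of those counts. Creb1-209, the leading Creb1 transcript with 40.6% and 27.7%, was listed at 0 in the read-derived tables, where Creb1-204 led. The leading transcript was the same in both quantifications for 7 of the 10 members and differed for Nr4a1, Sik2 and Creb1.

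The other genes of the pathway, in 10 lists of 85 genes, were chosen for their known roles in it. Of the 76 with enough counts, 1 was 2-fold or more higher in TPM in replicate 2 and 1 was 2-fold or more lower. The shares of all genes were 0.423% and 0.48%, and the median log2 ratio of the 76 was 0.03. The higher one was Per1, a clock gene that CREB induces, with 15.9 and 33.9 TPM. Fos, the immediate early gene of the AP-1 complex, was the lower one with 13.03 and 5.72 TPM, a log2 ratio of -1.17. In the read-derived tables the log2 ratio of Fos was -0.74, short of 2-fold.

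Among 19 measured genes known to be induced by cAMP or CREB, 9 were higher and 10 lower in replicate 2, with a median log2 ratio of -0.11. Irs2, Rgs2 and Gem, named after their values were seen, were higher in replicate 2 but short of 2-fold in TPM. Irs2, an insulin receptor substrate, had 7.86 and 14.4 TPM, a log2 ratio of 0.87. Rgs2, a regulator of G protein signalling, had 88.7 and 159 TPM, a log2 ratio of 0.84. Its expected counts, 3983 and 9518, were further apart than its TPM. Gem, a small GTPase, had 19.9 and 33.7 TPM, a log2 ratio of 0.76. These and Per1 lay above the 95th percentile of all genes with enough counts, 0.42. In the other direction Fos, Dusp1, Ier5, Ppargc1a, Btg2 and Egr1 lay below the 5th percentile, -0.33. Their log2 ratios were -1.17, -0.51, -0.49, -0.45, -0.39 and -0.34. By mean level the most abundant of the list was Cebpb, a bZIP factor, with 172 and 192 TPM.

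Upstream of the SIKs and CRTCs, 0 genes passed 2-fold in either direction. The gene that leads a list here is the one with the highest mean level over both libraries. Among the protein kinase A subunits, Prkar2b led with 133 and 127 TPM, though Prkar1a, at 128 TPM, was above it in replicate 2. Their median log2 ratio was -0.02. It was 0.03 for the LKB1 complex that activates SIKs, led by Stk11 (LKB1 itself, 44.20 and 44.28 TPM), and 0.11 for the other kinases that LKB1 activates, led by Snrk with 56.4 and 51.9 TPM. The calcineurin subunits, led by Ppp3r1 with 31.4 and 33.6 TPM, had a median of 0.16, and the 14-3-3 proteins, led by Ywhae with 206 and 180 TPM, of -0.12.

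Downstream and beside the members, 0 genes of the remaining 4 lists passed 2-fold. The CREB family and its coactivators, led by Creb3 with 40.1 and 51.7 TPM, had a median of 0.21 with 6 of 7 higher. Class IIa HDACs and Mef2 factors, which SIKs also control, were led by Hdac5 with 31.1 and 29.3 TPM and had a median of 0.01. In replicate 2, Hdac4 was slightly above Hdac5, with 29.6 TPM. Partners of NR4A receptors, led by Nr5a1 (steroidogenic factor 1, 223 and 219 TPM), had a median of -0.05. The 8 steroid genes described as NR4A targets, led by Hsd3b1 with 4739 and 5237 TPM, had a median of 0.01.

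**Figure D5:**
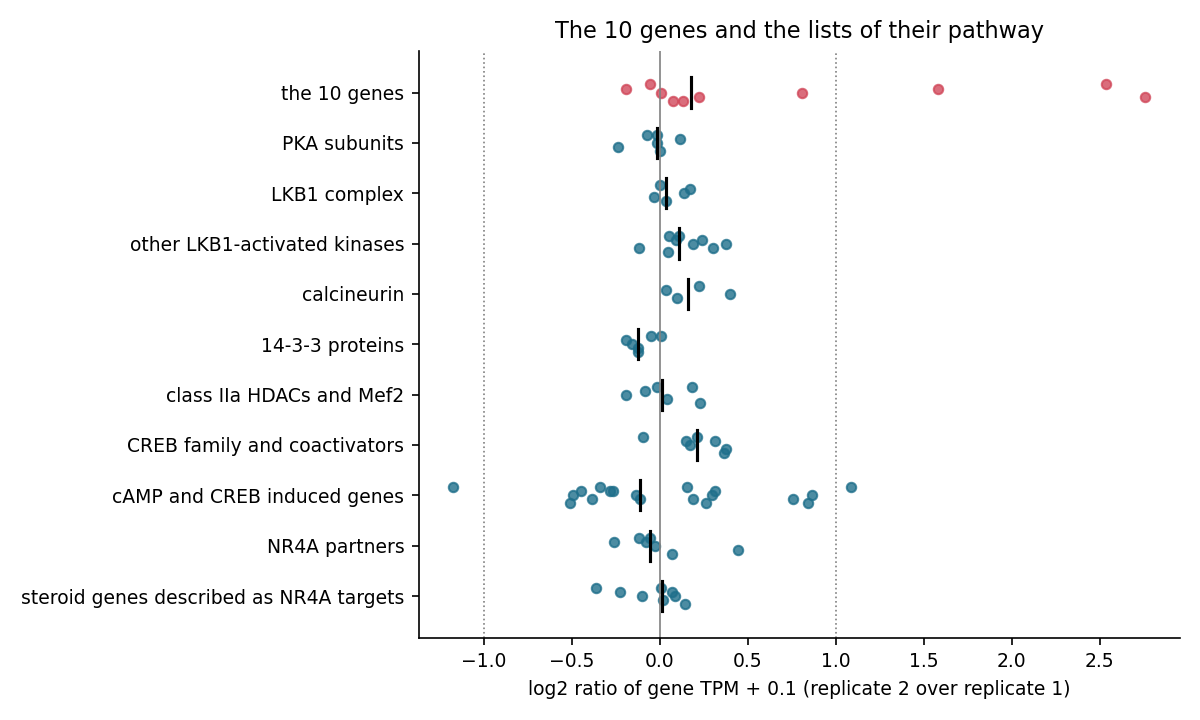
Log2 ratio of replicate 2 over replicate 1 of TPM + 0.1 for the members and for the measured genes of each pathway list, 1 point per gene. Nr4a1 and Sik1 lie at 2.53 and 2.76, and the list medians between -0.12 and 0.21.

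Over only 2 libraries, likeness to a gene is the closeness of its ratio. Of 11612 protein-coding genes with enough counts, those nearest to Nr4a1 were Sik1, Slc25a25, Csrnp1, Irf4 and Lbhd1. Slc25a25, a mitochondrial ATP and phosphate carrier, had 4.99 and 23.9 TPM, a log2 ratio of 2.24. Csrnp1, a nuclear protein gene, had 3.22 and 14.2 TPM, a log2 ratio of 2.10. Irf4, an interferon regulatory factor, had 1.05 and 8.90 TPM, a log2 ratio of 2.97, and was the nearest to Sik1. Lbhd1 rested on 164 and 209 counts, and its log2 ratio of 1.78 was -0.19 in the read-derived tables.

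Marker lists of tissues and cell types differed between the libraries to unlike degrees, most for striated muscle and hepatocyte markers. Summed TPM of 6 adrenal cortex markers was 11623 in replicate 1 and 11597 in replicate 2. Of 6 chromaffin markers, 5 were lower in replicate 2, with sums of 1484 and 1115 TPM. All 9 measured striated muscle markers were 2-fold or more lower in replicate 2, with sums over 10 markers of 345 and 2.61 TPM, and Myh4 was at 0 TPM there. Hepatocyte markers summed to 33.8 and 2.28 TPM, macrophage markers to 76.0 and 67.8, endothelial markers to 161 and 154, and adipocyte markers to 1852 and 1836. Lymphocyte markers summed to 0.760 and 0.960 TPM, with 0 of 8 reaching the count minimum. The part of these differences in the ratios of the members was not tested.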

How the data were processed

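Adrenal glands were profiled by total RNA-seq in 2 libraries of 1 group, so no test between groups was possible and no p-value is given. Per the text deposited beside the tables, reads were assigned to mm10 with GENCODE M21. For the aligner, the tool versions and the use of strand, the entry is: not given in the sources used here. Per the file headers, the gene tables and alignment-derived transcript tables hold an expected count, TPM, a posterior mean TPM and the bounds of a TPM interval, which were read as a signal of unstated level. Isoform percent, the share of a gene in a transcript, was deposited too, but shares were recomputed from TPM. Per the file headers, the read-derived transcript tables hold an estimated count and TPM. Both deposited TPM scales run over all entries, spike-ins included.

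The 10 members and the gene lists were chosen with earlier results of these data known. Named were all members, the highest member of each pathway list, every list member 2-fold or more apart, and the 5 protein-coding genes nearest in ratio to Nr4a1 and to Sik1. Genes of the cAMP and CREB list beyond the 5th or 95th percentile were named after their values were seen. A pseudocount of 0.1 TPM was added before dividing replicate 2 by replicate 1, for genes whose expected counts summed to 200 or more. Totals were 35684781 and 38701795 expected counts, and exact 95% Clopper-Pearson intervals of count ratios cover counting error only. Transcript types and coordinates came from GENCODE M21 and promoters from RefSeq GRCm38.p6. Alternatives were other pseudocounts, filters, fold thresholds and quantifications, and scaling by edgeR 4.0.16 (TMM) and DESeq2 1.42.0 in R 4.3.3, used for scaling factors only, on expected counts rounded to whole numbers. The calculation of the ratios was checked on simulated counts. Other work used Python 3.11.15, numpy 2.4.6, pandas 2.3.3, scipy 1.17.1 and matplotlib 3.10.9.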

Additional observations from a re-analysis of the deposited data

How the results depend on the processing

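Between 3 and 4 of the 10 members passed the fold threshold under every alternative run, the fourth being Nr4a3. Log2 ratios ran from 2.51 to 3.34 for Nr4a1, 2.58 to 3.07 for Sik1, 1.39 to 2.11 for Nr4a2 and 0.75 to 1.12 for Nr4a3. Of 100 ratios of the members under 10 other settings, 88 had the sign given in the report and 12 the opposite sign, all of them for Crtc1, Crtc2 and Creb1. The number of all genes 2-fold or more apart, 111 in the report, was 298 with a minimum of 50 summed counts, 750 with 10, 1913 with no minimum, 73 with TPM + 1 and 439 at 1.5-fold. The comparison of complete coding transcripts was chosen after seeing the data. No paired analysis was possible because the libraries form 1 group. With 2 libraries, leaving 1 out leaves no ratio. Depth limits the precision of low genes such as Nr4a2, with 340 counts in replicate 1. By mean level, the order of 8 of 9 pairs of paralogues was the same in the read-derived tables, the exception being Crtc2 and Crtc3.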
